A study of Mus musculus with 54 samples.

Results

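After a brief differentiation with all-trans retinoic acid, mouse embryonic stem cells that expressed the EZH2 variant R679C were compared with cells that expressed wild-type EZH2. The comparison takes 6 of the 48 libraries analysed, 3 of R679C and 3 of WT, and covers every gene with enough reads to be tested, which were 17030 of the 55401 genes listed. Expression was measured by sequencing poly(A) RNA. Both lines are Ezh2 fl/Δ heterozygous cells, in which 1 allele of Ezh2 is deleted and the floxed allele remains, with added EZH2-R679C or EZH2-WT. Endogenous EZH2 is therefore present beside the added protein in both. In both, 2i and LIF, which hold stem cells in the undifferentiated state, had been withdrawn and all-trans retinoic acid (ATRA) had been given. Further kinds of sample serve as references, all with 3 libraries per line and state. These are the heterozygous line without added EZH2 (het), the lines with added A677T, K634E, K563E or A733T, and the undifferentiated stem cells (mESC) of R679C and WT. The parental line, which still has both alleles, is given for its levels. The sources used here do not give the promoter that drives the added EZH2, the number of clones per line, or the dose and duration of ATRA. The labels do not say whether replicates were separate cultures, so the p-values rest on a spread that may be technical.

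EZH2 is the enzyme of Polycomb repressive complex 2 (PRC2), whose methylation of histone H3 at lysine 27 keeps developmental genes silent. The residue changed in R679C lies in the SET domain, the part that transfers the methyl group, and heterozygous changes in EZH2 cause Weaver syndrome, an overgrowth condition. Retinoic acid binds nuclear receptors that switch on early Hox genes and the enzyme Cyp26a1, and in stem cells without 2i and LIF it leads to mixtures of neural and endoderm-like cells.

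The 6 libraries held 17770841 to 26253316 counts. Ezh2 measured 371, 380.2 and 399 CPM in R679C and 358, 360.5 and 368 CPM in WT, where CPM is the normalised count per 1000000 library counts (log2 0.089, SE 0.0566, adjusted p = 0.359). Each R679C library was above each WT library by a small margin, and the difference did not pass the threshold of 0.05 on the adjusted p. The het line had 239 ± 4.86 CPM (SD, n = 3). Reads of the added and the endogenous gene were not separated. Retinoic acid targets were on in both lines: Cyp26a1, which degrades retinoic acid, had 318 ± 33.1 CPM in R679C and 369 ± 37.4 in WT, against 0.0569 ± 0.0545 and 0.0989 ± 0.0795 before ATRA (SD, n = 3). The pluripotency factor Pou5f1 was still at 380.2 ± 19.02 and 367 ± 8.04 CPM. Nanog, another factor of the undifferentiated state, stood at 39.7 ± 3.24 and 42.5 ± 1.99 CPM, against 891 ± 17.4 and 852 ± 35.7 before. Markers of feeder fibroblasts were low, with Col1a1 at 1.68 to 2.55 CPM and Postn at 0 to 0.0380 CPM over the 6 libraries. In this mixture of cells, fewer cells of a type and less RNA per cell cannot be told apart.

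In R679C, 830 genes were higher and 928 lower than in WT, which together is 10.3% of the genes tested (4.87% higher, 5.45% lower). Most differences were small: 62 genes (0.364%) were at least 2-fold higher and 177 (1.04%) at least 2-fold lower. The median log2 fold change of all genes tested was -0.0060. Correcting each library for its trend with GC content raised the count to 2770 genes, with 1337 higher and 1433 lower. Fitting replicate numbers as a block gave 2559, and fitting the 2 lines alone gave 1119. Leaving out any 1 of the 6 libraries gave 1180 to 1519.

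**Figure D1:**
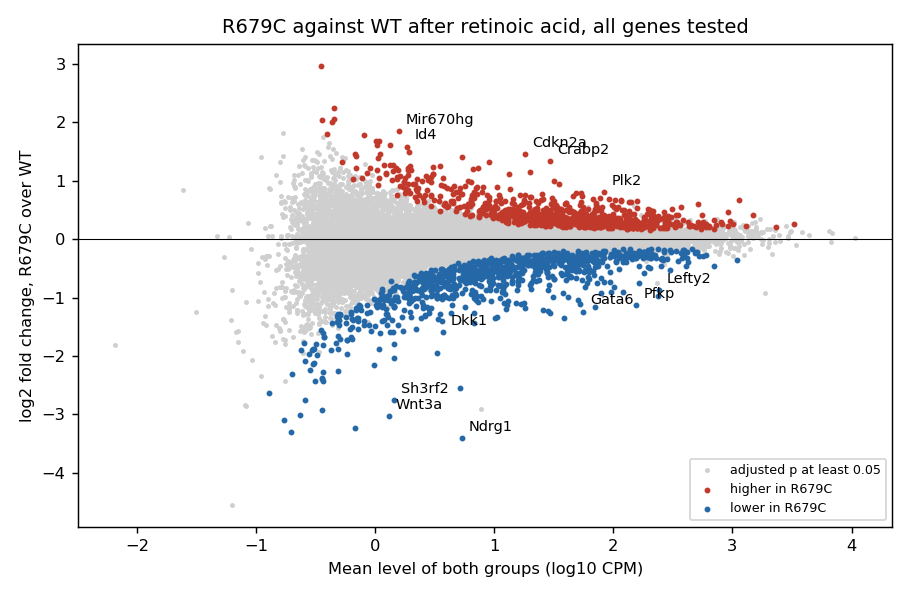
Each point is 1 of the 17030 genes tested, placed by its mean level in both lines (log10 CPM) and its log2 fold change, R679C over WT, after ATRA. The 830 red genes were higher and the 928 blue genes lower in R679C at an adjusted p under 0.05, and more genes lay past 2-fold on the lower side (177) than on the higher side (62).

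The largest decreases included a stress-responsive gene and a Wnt ligand. Ndrg1, a gene induced by hypoxia and stress, measured 0.815, 0.875 and 1.06 CPM in R679C and 10.3, 12.9 and 5.998 CPM in WT (log2 -3.40, SE 0.371, adjusted p = 3.03e-06). All 3 R679C libraries stood near 1 CPM and far under the lowest WT library. Wnt3a, a canonical Wnt ligand, measured 0.306, 0.380 and 0.112 CPM in R679C and 2.24, 3.09 and 1.66 CPM in WT (log2 -3.03, SE 0.351, adjusted p = 8.64e-07). Sh3rf2, a SH3-domain ubiquitin ligase, measured 0.458, 0.228 and 0.447 CPM in R679C and 2.29, 2.49 and 2.73 CPM in WT (log2 -2.76). Neither gene overlapped between the lines, and both were at a few CPM or less. The other genes among the 15 largest decreases were the amino acid transporter Slc38a5 (log2 -2.04), the hypoxia-induced mitochondrial protein gene Ndufa4l2 (-1.95), the fucosyltransferase Fut2 (-1.89), Tex13b (-1.79) and the Wnt antagonist Dkk1 (-1.60). They went on with the complement regulator Cd59a (-1.59), the proteoglycan Srgn (-1.58), the phospholipase Pla2g7 (-1.57), Slfn9 (-1.53), the transcription factor Tcf23 (-1.48) and Zscan4a and Zscan4c (-1.54 and -1.49). Pla2g7 lost its call without R679C replicate 1 (adjusted p = 0.0679) or WT replicate 3 (0.0778), and Zscan4c without WT replicate 2 (adjusted p = 0.0664). The Zscan4 genes are near-identical copies, so how their reads were shared out is uncertain.

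The largest increases were smaller in size and included a cell cycle inhibitor and a retinoic acid binding protein. Cdkn2a, which encodes the inhibitors p16 and p19 and is a classic Polycomb-repressed locus (chromosome 4, 89274471 to 89294653, GRCm38), measured 27.9, 29.2 and 22.3 CPM in R679C and 9.66, 10.3 and 9.13 CPM in WT (log2 1.46, SE 0.126, adjusted p = 6.69e-09). As for the decreases, a lack of overlap between the lines was a condition for being named here. Crabp2, which carries retinoic acid to its receptors in the nucleus (chromosome 3, 87948666 to 87953376), measured 43.0, 41.9 and 41.0 CPM in R679C and 16.3, 17.2 and 16.3 CPM in WT (log2 1.34, SE 0.133, adjusted p = 1.11e-07). Both lines were tight. Id4, an inhibitor of helix-loop-helix factors, measured 3.51, 2.09 and 2.80 CPM in R679C and 0.873, 0.990 and 0.895 CPM in WT (log2 1.59), and the Wnt ligand Wnt3 measured 1.48, 1.75 and 1.45 CPM in R679C and 0.382, 0.396 and 0.671 CPM in WT (log2 1.69). Wnt3 thus rose while Wnt3a fell. The rest of the 15 were Mir670hg, the host transcript of a microRNA (log2 1.85), the cytochrome P450 gene Cyp2b23 (1.68), C1qtnf3 (1.61), the cell adhesion gene Chl1 (1.49), the integrin Itgb8 (1.46) and the cytokine receptor Csf2rb (1.46). They also held Inka2 (1.41), the transcription factors Pou4f3 (1.32), Glis3 (1.28) and Tbx15 (1.27), and Cd84 (1.27). Glis3 lost its call without R679C replicate 1 (adjusted p = 0.062), and Tbx15 without R679C replicate 2 (adjusted p = 0.0783) or WT replicate 1 (0.0501). By p, the leading increases were Ankrd6, Plk2, Cdkn2a, Sall3 and Pou4f3, with log2 values of 0.73, 0.80, 1.46, 0.94 and 1.32. The leading decreases were Gata6, the desmosomal cadherin Dsg2, Lncenc1, AU018091 and Tfcp2l1, at -1.24, -1.23, -1.36, -1.27 and -0.99.

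Genes of extraembryonic and definitive endoderm were lower in R679C. Of 28 members tested, 17 fell, none rose, and the median log2 fold change was -0.41, against -0.0060 over all genes. This and the later lists were chosen with earlier results of these data known. Some genes are in several lists. Gata6, the transcription factor that starts primitive endoderm (chromosome 18, 11052064 to 11085635), measured 35.0, 32.6 and 31.7 CPM in R679C and 77.2, 77.3 and 81.5 CPM in WT (log2 -1.24, SE 0.0756, adjusted p = 1.51e-11). Sox17, a factor that acts after Gata6, measured 12.4, 10.1 and 9.34 CPM in R679C and 24.0, 22.4 and 22.7 CPM in WT (log2 -1.11, adjusted p = 2.91e-07), and Gata4 measured 12.6, 12.1 and 9.45 CPM in R679C and 23.7, 27.2 and 22.5 CPM in WT (log2 -1.09, adjusted p = 2.23e-07). For each of these factors the highest R679C library was below the lowest WT library, which for Gata6 was a condition of its naming. Foxa2, a pioneer factor of definitive endoderm, fell by 1.25 and had 0.968, 1.18 and 1.34 CPM in R679C. Sox7, a relative of Sox17, fell by 0.81 and the receptor Pdgfra, a primitive endoderm marker, by 1.18, all on the log2 scale.

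Genes for matrix and surface proteins of endoderm were among the 17. Lama1, a laminin chain of the basement membrane that parietal endoderm lays down (chromosome 17, 67697259 to 67822647), measured 48.1, 46.3 and 35.8 CPM in R679C and 106, 99.9 and 86.2 CPM in WT (log2 -1.15, SE 0.0899, adjusted p = 9.78e-10). The collagen IV genes Col4a1 and Col4a2 fell by 0.91 and 0.99, and Nid1, which links laminin to collagen IV, by 0.65. Cubn, the endocytic receptor of visceral endoderm, measured 5.55, 6.24 and 5.31 CPM in R679C and 14.8, 15.001 and 14.1 CPM in WT (log2 -1.35, adjusted p = 3.8e-07). The summed level of the list was 1351 to 1654 CPM in the R679C libraries and 1930 to 2186 in those of WT. Leaving out any 1 library kept 15 to 17 members lower and none higher. Gata6 had 52.2 ± 2.49 CPM in het, between the values of R679C and WT, and Sox17 had 11.8 ± 0.817, close to R679C.

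**Figure D2:**
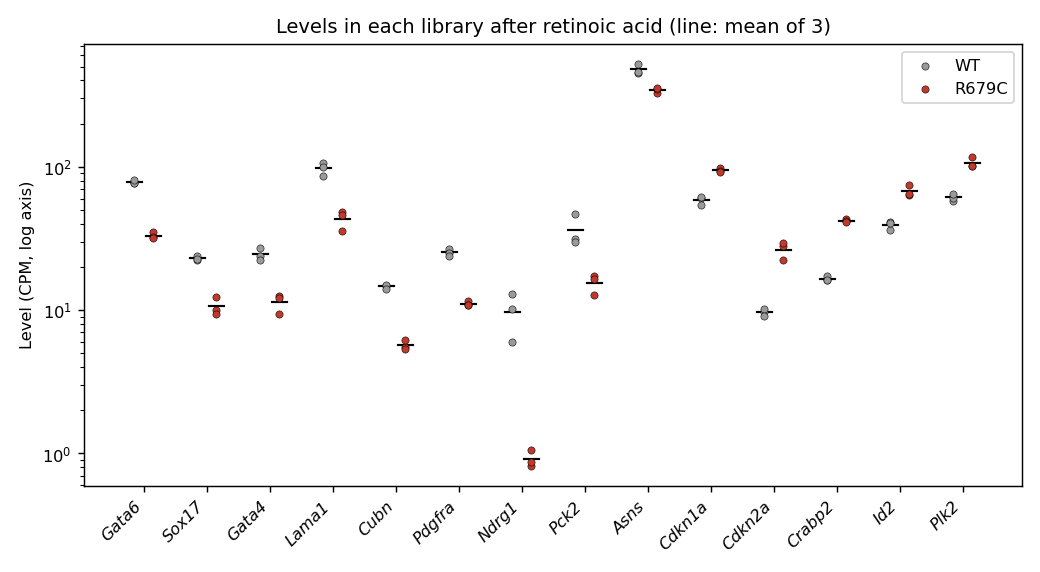
Levels (CPM, log axis) of 14 genes after ATRA, with 1 point per library and a line at the mean of 3, grey for WT and red for R679C. From Gata6 to Asns the R679C points lie below those of WT, and from Cdkn1a to Plk2 they lie above.

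Naive pluripotency genes were split, with most called members lower. Of 29 members tested, 12 fell and 3 rose, with a median of -0.19. Tfcp2l1, a transcription factor of the naive network, measured 21.1, 20.9 and 19.97 CPM in R679C and 42.0, 42.5 and 39.3 CPM in WT (log2 -0.99, SE 0.0756, adjusted p = 9.42e-10). The libraries of each line lay close together and far from those of the other. A lack of overlap was a condition of the ranking by p in which Tfcp2l1 was named. Klf5 and Esrrb, which maintain self-renewal, fell by 0.74 and 0.59, Zfp42 by 0.37 and Tcl1 by 1.06. Zfp57, which guards imprinted methylation, had 117, 126 and 122 CPM in R679C and 191, 211 and 217 CPM in WT (log2 -0.75). Klf2 and Sox2 rose by 0.55 and 0.48. Nanog, Klf4 and Pou5f1 did not pass, at log2 -0.094, 0.011 and 0.059. Lncenc1, a long noncoding RNA of naive cells, had 21.6, 22.5 and 20.5 CPM in R679C and 54.5, 56.7 and 55.1 CPM in WT (log2 -1.36, adjusted p = 1.73e-10). Of the 23 formative and primed epiblast genes, 6 rose, among them Sall2 (log2 0.54), and 2 fell (1 without WT replicate 1, WT replicate 3, R679C replicate 1 or R679C replicate 2). Lefty2, a Nodal inhibitor, was one of these, with 184, 166 and 163 CPM in R679C and 322, 314 and 306 CPM in WT (log2 -0.87).

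Germline and 2-cell-stage genes were also mostly lower where they moved. Of 30 germline genes tested, 9 fell and 1 rose, with a median of -0.26. Stra8, a retinoic acid target that starts meiosis, had 72.1, 77.6 and 75.3 CPM in R679C and 113, 119 and 103 CPM in WT (log2 -0.57, SE 0.0654, adjusted p = 8.06e-07), and Tex11, a meiosis gene on the X chromosome, fell by 0.78. Of 17 genes of the 2-cell-like state, 5 fell, 4 of them Zscan4 copies. The fifth, Tmem92, had no more than 0.0559 CPM in any R679C library and at least 0.317 in WT. Without WT replicate 2 or WT replicate 3, 3 members of the list were called lower.

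Neural progenitor genes were called mostly on the higher side in R679C. Of 21 members tested, 10 rose and 1 fell (none without WT replicate 1), with a median of 0.37. Sox2, a factor of stem cells and neural progenitors, measured 161, 149 and 162 CPM in R679C and 115, 108 and 118 CPM in WT (log2 0.48). Its relative Sox3 measured 86.4, 87.2 and 83.3 CPM in R679C and 58.1, 61.3 and 57.1 CPM in WT (log2 0.55). For both, no library of WT reached any library of R679C. Pax6, which specifies neuroectoderm, measured 24.5, 26.0 and 25.2 CPM in R679C and 18.9, 18.6 and 17.6 CPM in WT (log2 0.46, adjusted p = 0.00011). The intermediate filament genes Nes and Vim rose by 0.67 and 0.40, the Notch ligand Dll1 by 0.51, and the adhesion gene Ncam1 by 0.81. Olig2 and Olig3, factors of the ventral and dorsal neural tube, rose by 0.81 and 0.59. Genes of mature neurons were mostly not called: of 21 tested, 1 rose (Gap43, 0.52) and 2 fell (1 without R679C replicate 2 or any 1 WT library), with a median of -0.11. Of 14 neural crest genes, 5 rose and 1 fell (none without any 1 library other than R679C replicate 2), with a median of 0.34, and Msx1, Msx2 and Tfap2a had log2 values of 0.62, 1.25 and 1.18.

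Genes of cell junctions and of the change from epithelial to mesenchymal cells went in both directions. Of 26 such genes tested, among them cadherins, claudins, integrins and transcription factors, 5 rose and 7 fell. Cdh1, the cadherin of epithelia and stem cells, measured 379.8, 388 and 338 CPM in R679C and 496, 506 and 446 CPM in WT (log2 -0.38, SE 0.0626, adjusted p = 0.00011). The claudins Cldn4 and Cldn6 fell by 0.69 and 1.04, and the tight junction gene Ocln by 0.52. Vim, Zeb1, a repressor of Cdh1, and Cdh6 rose by 0.40, 0.36 and 0.75. Of 18 mesoderm genes tested, none rose and 2 fell, which is 11.1% called, near the 10.3% among all genes tested. These were Foxc1 (log2 -1.81), at only 0.158 CPM in R679C and 0.576 in WT, and Pdgfra, which is also in the endoderm list. After the GC correction 4 were lower. Of 21 blood and endothelium genes, 4 rose (2 without WT replicate 2 or R679C replicate 1) and 3 fell. Etv2, the factor that starts the endothelial program, rose by 0.60 and Sox18 by 0.59, and Runx1, which starts blood formation, fell by 1.29.

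Retinoic acid induces Hox genes in the order of their position in each cluster, anterior paralogs first. In R679C the called members with paralog numbers 3 to 5 were higher and those with numbers 6 to 10 lower. In HoxA, 3 of 10 tested rose and 3 fell. Hoxa5 measured 176, 158 and 179 CPM in R679C and 130.2, 134 and 142 CPM in WT (log2 0.34, SE 0.0648, adjusted p = 0.000611), and Hoxa3 rose by 0.37. Hoxa7 measured 8.20, 6.35 and 7.83 CPM in R679C and 14.6, 13.97 and 16.4 CPM in WT (log2 -1.01, SE 0.108, adjusted p = 2.32e-07). The lines did not overlap for either gene. Hoxa4 (log2 0.24), Hoxa9 (-0.29) and Hoxa10 (-0.35) also passed but each lost its call without at least 1 library. Hoxa4 did so without R679C replicate 2 (adjusted p = 0.113), R679C replicate 3 (0.054), WT replicate 1 (0.113) or WT replicate 2 (0.0528), Hoxa9 without R679C replicate 2 (adjusted p = 0.196), WT replicate 1 (0.14), WT replicate 2 (0.0668) or WT replicate 3 (0.0609), and Hoxa10 without R679C replicate 2 (adjusted p = 0.18), R679C replicate 3 (0.0583), WT replicate 1 (0.115) or WT replicate 3 (0.157). With the GC correction the adjusted p was 0.054 for Hoxa4 and 0.0806 for Hoxa10.

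In HoxB, 1 of 10 rose and 4 fell. The 4 were the adjacent genes Hoxb6, Hoxb7, Hoxb8 and Hoxb9, with log2 values of -0.45, -0.51, -0.47 and -0.88, and they kept their call without any 1 library. Hoxb9 measured 22.0, 18.3 and 19.5 CPM in R679C and 36.8, 38.4 and 34.5 CPM in WT (adjusted p = 3.59e-08). Hoxb5, next to them, had log2 0.21 and lost its call without R679C replicate 1 (adjusted p = 0.182), R679C replicate 3 (0.126), WT replicate 1 (0.161) or WT replicate 2 (0.101) and, after the GC correction, stood at an adjusted p of 0.0733. Hoxb1, the most anterior gene of its cluster, did not pass and was at log2 0.077. Hoxc5 rose by 0.70, with 8.66, 8.21 and 8.45 CPM in R679C and 5.73, 5.42 and 4.48 CPM in WT, and Hoxc4 by 0.34, though Hoxc4 lost its call without any 1 of the 6 libraries (adjusted p of 0.0761 to 0.141). HoxD genes other than Hoxd1 and Hoxd13 were under 1 CPM. Hoxd8 was the only one of 5 to pass, with no more than 0.190 CPM in R679C, and it lost its call without R679C replicate 1 (adjusted p = 0.151), R679C replicate 3 (0.0767) or WT replicate 3 (0.257). With the GC correction 2 of the 5 were lower. Cdx genes and the cofactors that bind DNA with Hox proteins were called on the higher side, with 5 of 12 risen (3 without R679C replicate 1 or R679C replicate 2) and none fallen. With the GC correction 6 were higher and 2 lower, and with the replicate block 6 and 1. Meis2 measured 130.4, 122 and 134 CPM in R679C and 84.8, 91.7 and 89.8 CPM in WT (log2 0.54, SE 0.0585, adjusted p = 2.54e-07), and Pknox2 rose by 0.76.

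**Figure D3:**
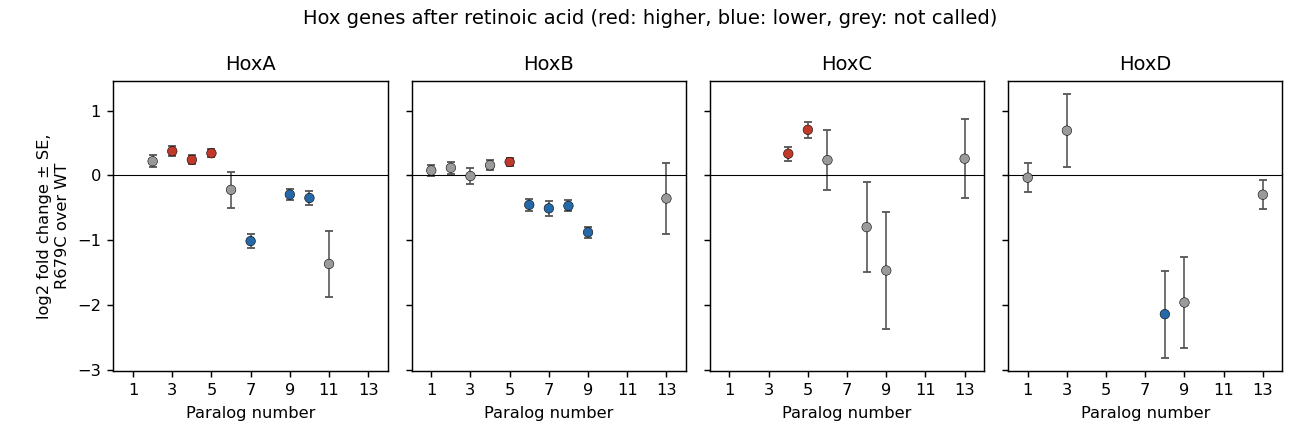
Log2 fold change, R679C over WT after ATRA, of Hox genes, by cluster and paralog number, with bars for 1 SE. Red genes were higher, blue lower and grey not called. Hoxa3, Hoxa4, Hoxa5, Hoxb5, Hoxc4 and Hoxc5 lie above 0, and the called genes from paralog number 6 upwards lie below.

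Genes that make, carry and read retinoic acid changed in both directions. Of 13 metabolism and binding genes tested, 3 rose, led by Crabp2, and 4 fell. Leaving out 1 library gave 2 higher and 1 lower (WT replicate 1), 3 and 2 (WT replicate 2 or R679C replicate 1), 1 and 3 (R679C replicate 2) or 2 and 0 (R679C replicate 3). Stra6, the membrane receptor for retinol uptake, measured 61.8, 66.3 and 47.6 CPM in R679C and 85.0, 86.2 and 75.1 CPM in WT (log2 -0.48, adjusted p = 0.00745) and lost its call without R679C replicate 3 (adjusted p = 0.0518). Cyp26a1 was at log2 -0.21 (adjusted p = 0.105) and passed with corrections, at 0.000556 for GC content and 0.0154 with replicate numbers as a block. It also passed without WT replicate 3 or R679C replicate 2. Rarb, a receptor that retinoic acid induces, had 6.16, 5.59 and 5.87 CPM in R679C and 5.08, 4.43 and 3.98 CPM in WT (log2 0.39, adjusted p = 0.131). Its R679C libraries were all above those of WT, but the difference did not pass. Of 15 other induced genes, 4 rose, among them the zinc finger genes Tshz1 and Zfp703 (0.67 and 0.55), and 3 fell, among them Stra8 and the transglutaminase Tgm2 (-0.63).

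Targets of p53, the factor that halts the cell cycle after damage, were called mostly on the higher side. Of 26 tested, 12 rose and 1 fell (none without WT replicate 1 or R679C replicate 2), with a median of 0.32. Cdkn1a, which encodes the cell cycle inhibitor p21 (chromosome 17, 29090976 to 29100727), measured 97.6, 93.7 and 92.2 CPM in R679C and 60.1, 53.8 and 61.9 CPM in WT (log2 0.70, SE 0.0706, adjusted p = 9.38e-08). Plk2, a kinase induced by p53, measured 101, 102 and 116 CPM in R679C and 57.9, 60.4 and 64.9 CPM in WT (log2 0.80, adjusted p = 6.69e-09). For both genes the lines did not overlap. A lack of overlap was a condition of the ranking by p in which Plk2 was named, and Cdkn1a was chosen after its values were seen. The nuclease Aen and Phlda3, an inhibitor of Akt, rose by 0.58 and 0.55, and Mdm2, which degrades p53, by 0.36. Mdm2 lost its call without R679C replicate 3 (adjusted p = 0.0513) or WT replicate 2 (0.0553). The GC correction raised the count of higher members to 18.

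Of 35 growth control genes, 6 rose and 3 fell. Besides Cdkn2a and Cdkn1a, the neighbour of Cdkn2a, Cdkn2b (p15), rose, with 3.87, 3.42 and 3.13 CPM in R679C and 2.13, 1.78 and 1.92 CPM in WT (log2 0.85, adjusted p = 0.0041). Cyclin D1 (Ccnd1), which drives entry into the cycle, rose by 0.38. Cdkn1c, an imprinted inhibitor altered in another overgrowth syndrome (chromosome 7, 143458339 to 143461050), went the other way, with 34.7, 27.99 and 36.8 CPM in R679C and 69.5, 63.1 and 72.6 CPM in WT (log2 -1.04, SE 0.105, adjusted p = 1e-07). The insulin receptor gene Insr fell by 0.43. Proliferation genes were mostly not called, with 2 of 30 higher and 1 lower (1 and 2 without R679C replicate 3, and 1 or 2 and none without WT replicate 1, WT replicate 3 or R679C replicate 2). The GC correction gave 3 and 4, the replicate block 4 and 3. The imprinted list also holds Zfp57, Trim28 and Dnmt1, which help to keep imprints and are not imprinted themselves. Of its 51 genes tested, 3 rose and 8 fell, with Zfp57 among those that fell. The counts were 4 and 5 without WT replicate 2 and 1 and 8 without R679C replicate 2. Mest, expressed from the paternal allele, had 633.6, 623 and 600.4 CPM in R679C and 419, 389.6 and 423 CPM in WT (log2 0.60, adjusted p = 1.21e-06), so it and Cdkn1c moved in opposite directions. Of 25 genes of overgrowth syndromes, 2 rose, among them the hedgehog receptor Ptch1 (log2 0.40), and 2 fell, Cdkn1c and Nfix, of which Nfix lost its call without R679C replicate 1 (adjusted p = 0.0938), R679C replicate 2 (0.109), R679C replicate 3 (0.102), WT replicate 1 (0.138) or WT replicate 2 (0.142). With the GC correction 3 were higher and 5 lower. Of 27 cartilage and skeletal genes 1 rose, Col2a1 (log2 0.78), the main collagen of cartilage, and 1 fell (2 without R679C replicate 1 or R679C replicate 3, and 4 with the GC correction or the replicate block).

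In the list of bone morphogenetic protein (BMP), Nodal and Id genes, the called members were mostly higher. Of 23 BMP, Nodal and Id genes, 8 rose and 2 fell (6 and 1 without WT replicate 1, 8 and 1 without WT replicate 2). No Bmp ligand gene tested was called. Bmp2 was at log2 0.36, and Bmp4 (adjusted p = 0.0502), Bmp6, Bmp7 and Bmp8b were at -0.47, -0.28, -0.14 and -0.30. Id1, Id2 and Id3, direct BMP targets that hold back differentiation, rose by 0.59, 0.78 and 0.56, beside Id4. Id2 measured 63.7, 64.1 and 74.4 CPM in R679C and 41.5, 36.2 and 40.3 CPM in WT (adjusted p = 9.93e-07), with no overlap. The feedback inhibitor Smad7 rose by 0.46 and the ligand Gdf3 by 0.35. In the Wnt pathway 4 of 28 genes rose and 5 fell. The feedback gene Axin2, a general readout of Wnt signalling, measured 17.1, 15.7 and 12.4 CPM in R679C and 26.4, 27.2 and 23.3 CPM in WT (log2 -0.76, SE 0.11, adjusted p = 2.39e-05), and Dkk1 measured 2.29, 1.94 and 1.29 CPM in R679C and 5.95, 5.46 and 5.55 CPM in WT (log2 -1.60). Tcf7l2, a nuclear effector of the pathway, rose by 0.68. Of 28 ERK and FGF genes, 3 rose and 4 fell, and each library left out but R679C replicate 3 lowered these to 0 or 1 and 1 to 3. The GC correction gave 5 and 8, the replicate block 4 and 7. The phosphatase Dusp4, an ERK feedback gene, fell by 0.62. Of 16 trophoblast genes 3 rose (1 without WT replicate 2 or R679C replicate 1) and 2 fell, among them Tead4, which starts the trophoblast program, by 1.36. Of 29 collagen genes 1 rose and 4 fell (2 without R679C replicate 3). The GC correction gave 1 and 8, the replicate block 2 and 5. Of 13 fibroblast genes 1 rose, Vim, and 2 fell (1 without R679C replicate 2, none without R679C replicate 3).

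Genes of the integrated stress response, in which the factor Atf4 raises amino acid synthesis and transport, were called mostly on the lower side. Of 31 members, 12 fell and 1 rose, with a median of -0.25. Atf4 itself was not called (log2 -0.028, adjusted p = 0.845). The member that rose was Sesn2 (log2 0.28), which lost its call without R679C replicate 1 (adjusted p = 0.106), R679C replicate 2 (0.0846) or WT replicate 3 (0.087). Pck2, a mitochondrial enzyme of gluconeogenesis (chromosome 14, 55540266 to 55551242), measured 17.2, 16.4 and 12.7 CPM in R679C and 31.3, 46.6 and 29.9 CPM in WT (log2 -1.21, SE 0.193, adjusted p = 0.000309). The asparagine synthetase gene Asns (chromosome 6, 7675169 to 7693254) measured 328, 351 and 352 CPM in R679C and 449, 520.2 and 462 CPM in WT (log2 -0.47, SE 0.0613, adjusted p = 6.01e-06). WT replicate 2 was the highest library for each. Vldlr, the receptor for very-low-density lipoprotein, fell by 1.43, the cystine transporter Slc7a11 by 0.98, Cth, which makes cysteine, by 0.66, and Psat1, of serine synthesis, by 0.33. With the GC correction 16 were lower and 2 higher, and with the replicate block 14 and 2. The count of lower members depended on single libraries. It was 6 without WT replicate 2, 7 without R679C replicate 3, 9 without R679C replicate 1 and 11 without R679C replicate 2, with 13 without WT replicate 3. In het, Pck2 had 153 ± 6.02 CPM and Asns 795 ± 63.9 (SD, n = 3).

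Hypoxia and glycolysis genes were mostly not called, and the called members were mainly lower. Of 31 members, 6 fell and 1 rose, with a median of -0.016. Beside Ndrg1, the glycolytic enzyme gene Pfkp measured 99.9, 104 and 87.0 CPM in R679C and 208, 248.6 and 184 CPM in WT (log2 -1.13, SE 0.124, adjusted p = 1.65e-06), and Vegfa, the growth factor for vessels, measured 17.4, 14.2 and 12.03 CPM in R679C and 26.0, 27.7 and 21.5 CPM in WT (log2 -0.78, adjusted p = 7.01e-05). Egln3, an oxygen sensor induced in hypoxia, fell by 1.10. Pfkfb3, which speeds glycolysis, rose by 0.40. Without R679C replicate 3, 4 members were lower and 2 higher, and with the replicate block 8 and 2. The means in het were above those of WT, at 20.1 ± 2.77 CPM for Ndrg1, 399 ± 49.6 for Pfkp and 54.3 ± 2.99 for Vegfa.

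Upstream sequences of the members that fell are shown because genes of both lists are known for a short response element. The 250 bases before the start site were read from RefSeq (GRCm38.p6) and searched on both strands for short motifs. These were TGATGNAA, the C/EBP-ATF element bound by Atf4, and ACGTG, a form of the core of the hypoxia response element. The other form, GCGTG, was not searched, so a window without a match may still hold the core. Genes with several start sites have several windows. The first motif was in 5 of 14 windows of lower stress response genes (5 of the 10 genes with an entry), and in 3.452% of 32851 windows of all genes. The second was in 3 of 7 windows of lower hypoxia genes (3 of 5 genes), and in 16.572% of all windows. By gene, 3.91% and 18.5% of 27025 genes had a window with the first and the second. A match describes the letters only. The lists were made of known response genes, and members that did not fall were not counted apart. The shares therefore cannot be tied to the members that fell, and such a link was not tested. In these examples the element is in capitals.
Pck2 (chr14:55540016-55540265, plus strand): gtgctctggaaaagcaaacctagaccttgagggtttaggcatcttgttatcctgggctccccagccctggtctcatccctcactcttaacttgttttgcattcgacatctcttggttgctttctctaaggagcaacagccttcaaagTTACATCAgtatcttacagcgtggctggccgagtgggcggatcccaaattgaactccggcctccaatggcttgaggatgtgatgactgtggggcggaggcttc
Slc7a11 (chr3:50443614-50443863, minus strand): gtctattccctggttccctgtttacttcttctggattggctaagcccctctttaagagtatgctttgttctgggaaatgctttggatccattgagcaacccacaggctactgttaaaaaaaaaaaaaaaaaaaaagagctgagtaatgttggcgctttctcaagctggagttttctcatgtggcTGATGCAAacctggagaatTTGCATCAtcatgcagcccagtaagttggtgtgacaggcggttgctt
Egln3 (chr12:54203875-54204124, minus strand): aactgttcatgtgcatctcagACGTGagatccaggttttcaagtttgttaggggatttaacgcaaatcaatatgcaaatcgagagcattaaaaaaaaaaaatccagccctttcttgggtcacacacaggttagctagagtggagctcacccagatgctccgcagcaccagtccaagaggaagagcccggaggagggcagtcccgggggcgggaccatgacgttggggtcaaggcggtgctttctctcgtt

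PRC2 subunit and accessory genes did not pass in the fit without corrections. Of 6 core and 8 accessory genes tested, none was called (1 core gene was lower without WT replicate 2 or R679C replicate 3, and 1 accessory gene without R679C replicate 3), and the core list had a median of -0.11. Suz12, a core subunit needed for the complex to hold together, measured 229, 183 and 267 CPM in R679C and 311, 271 and 338 CPM in WT (log2 -0.43, adjusted p = 0.0532). All R679C libraries were below all WT libraries. With the GC correction it passed at 2.12e-05, and with the replicate block at 0.00837; it also passed with no filter on low counts, with DESeq2, and without WT replicate 2 or R679C replicate 3. Eed and Ezh1 were at log2 -0.14 and -0.23 (adjusted p = 0.188 and 0.121), and 0.0495 and 0.0371 after the GC correction. Ezh2 was at 0.0335 after it. Of the accessory genes, 1 was lower with the replicate block, and 1 was higher and 1 lower with the GC correction. Of 23 PRC1 genes, 4 rose and none fell. Phc2 rose by 0.48, while the other members, Bcor, Kdm2b and Scmh1, each lost their call without at least 2 libraries. Without WT replicate 3, 1 member was called, and 2 without WT replicate 1, R679C replicate 1 or R679C replicate 2.

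Developmental genes that PRC2 marks in stem cells went both ways. Of 88 tested, out of 130 listed, 16 rose and 12 fell, with a median of -0.027. The higher members included Pou4f3, Msx2, Msx1, Olig2, Olig3 and Pax6, and the lower ones Foxc1, Foxa2, Gata6, Sox17, Gata4 and Sox7. Pou4f3, a factor of sensory cells, measured 12.4, 11.8 and 14.7 CPM in R679C and 5.35, 5.34 and 4.88 CPM in WT (log2 1.32, SE 0.124, adjusted p = 2.5e-08), and Msx2 measured 2.14, 3.04 and 3.08 CPM in R679C and 1.31, 0.990 and 1.21 CPM in WT (log2 1.25). The 42 others had too few reads. Of 18 interferon genes, 5 fell and 1 rose. The class I antigen presentation genes H2-K1 and H2-D1, which are related copies and may share reads, fell by 0.83 and 0.63, and Oasl2 rose by 0.46. Without WT replicate 1 or R679C replicate 1, 2 interferon genes were lower, and 3 without WT replicate 2 or R679C replicate 2. Of 14 DNA methylation genes, 3 rose and 3 fell, with 1 and 3 without WT replicate 1, 1 and 2 without WT replicate 3 or R679C replicate 2, and 0 and 3 without R679C replicate 1. Tet2, which oxidises methylated cytosine, fell by 0.33 and Zfp57 by 0.75.

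**Figure D4:**
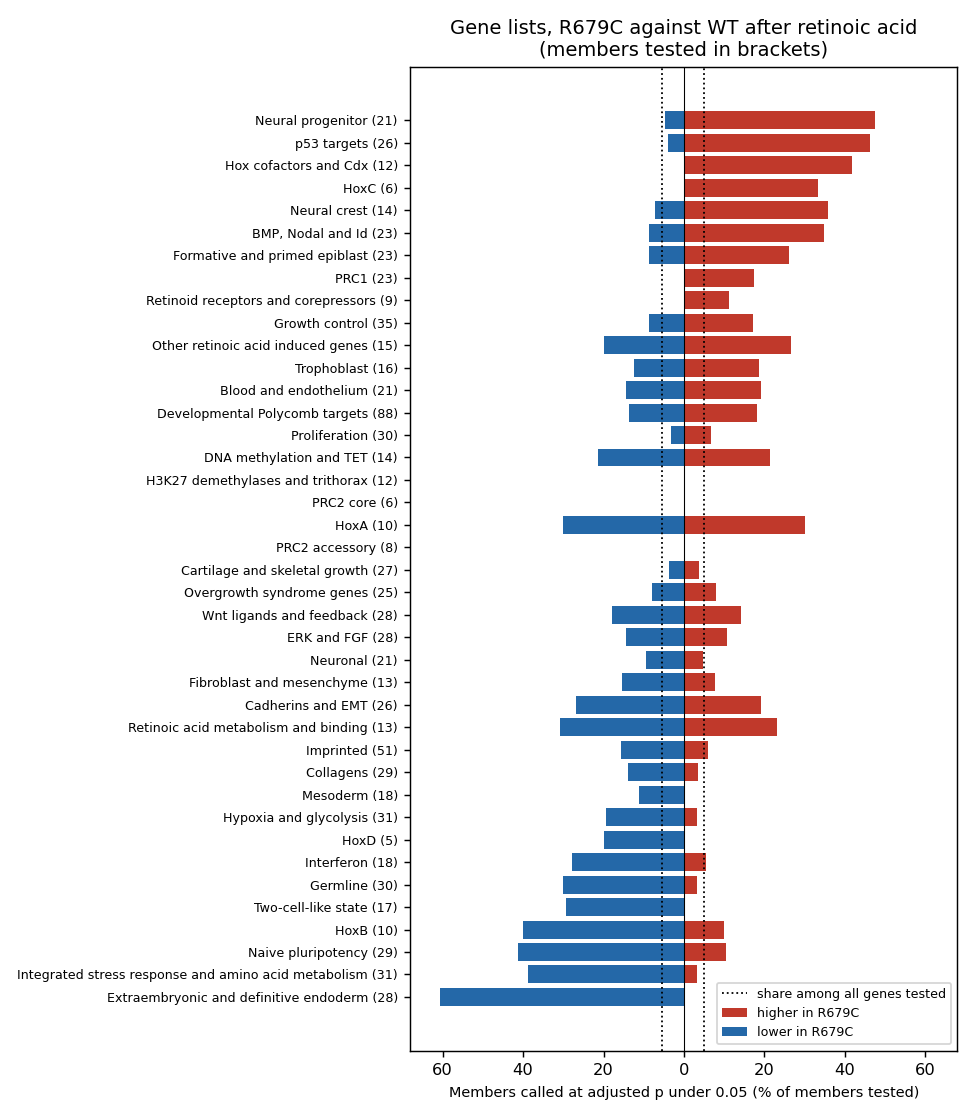
Share of tested members called higher (red, right) or lower (blue, left) in R679C after ATRA, for each of 40 gene lists with the number of members tested in brackets. Dotted lines mark the shares among all genes tested (4.87% higher, 5.45% lower). The endoderm list has the longest bar on the lower side, with 17 of 28 members, and the neural progenitor list on the higher side, with 10 of 21.

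R679C was also tested against the mean of A677T, K634E and K563E after ATRA. A733T was left out of this mean because it may be the growth restriction variant of the study; the labels do not say which line that is, so the choice rests on general knowledge. R679C was higher for 956 genes (5.61% of those tested) and lower for 644 (3.78%), together 9.4%, but this count was unstable. It was 3708 with replicate numbers as a block, 560 with the GC correction, 1032 with both, and 56 when only these lines were fitted. Leaving out 1 R679C library changed it to 76 (replicate 2), 303 (replicate 1) or 3068 (replicate 3). Without replicate 1 the split was 139 higher and 164 lower. The count was 2657 without K634E replicate 2, 780 without K563E replicate 3 and 828 without A677T replicate 3. Of the 12 genes named for this comparison, Smtnl1 alone kept its call under all 18 alternatives. This smoothelin-like gene had 1.92 ± 0.229 CPM in R679C against 0.641 in A677T, 1.02 in K634E and 1.04 in K563E (log2 1.10, SE 0.195, adjusted p = 0.00233). The zinc finger gene Glis1 kept it under 17, with 2.36 ± 0.328 CPM in R679C against 0.825 in A677T, 1.64 in K634E and 1.13 in K563E (log2 1.04, SE 0.191, adjusted p = 0.00272), and reached 0.0641 without R679C replicate 2. Fkbp6, Stab1, Rab26os, Themis and Nnt kept it under 16, Cd6 under 15, Rab39 under 13, Etohd2 under 12, Cdh7 under 10 and Pkhd1 under 9. Their log2 values were Fkbp6 1.21, Stab1 1.05, Rab26os 1.02, Cd6 1.07 on the higher side. The highest adjusted p was 0.0711 for Stab1 and 0.102 for Cd6, without R679C replicate 1, and 0.0816 to 0.256 for the other 8, without R679C replicate 2. On the lower side the log2 values were Themis -0.91, Nnt -0.88, Rab39 -1.10, Etohd2 -0.85, Cdh7 -1.40, Pkhd1 -1.13.

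The related lines are given side by side for genes that differed between R679C and WT. Gata6 had 33.1 ± 1.72 CPM in R679C and 46.8, 35.2 and 39.4 in A677T, K634E and K563E, against 78.7 in WT. Lama1 had 43.4, 42.7, 40.1 and 43.2 CPM in the same order and 97.3 in WT. In A733T, Lama1 was at 90.1 ± 9.003 CPM, near WT. Cdkn2a had 26.4 ± 3.68 CPM in R679C against 8.89 in A677T, 15.3 in K634E and 18.6 in K563E, and the test against their mean gave log2 0.96 (adjusted p = 9.48e-07). The call held under 19 of 19 alternatives, with an adjusted p of at most 0.00172. This gene was picked after its values were seen. Crabp2 had 42.0 ± 1.02 CPM in R679C against 16.7 in A677T, 28.1 in K634E and 39.8 in K563E, and WT had 16.6. For the endoderm list, 1 member was higher and 1 lower than the mean of the related lines, with a median of 0.040. For p53 targets, 10 of 26 were higher and 2 lower, with a median of 0.15.

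**Figure D5:**
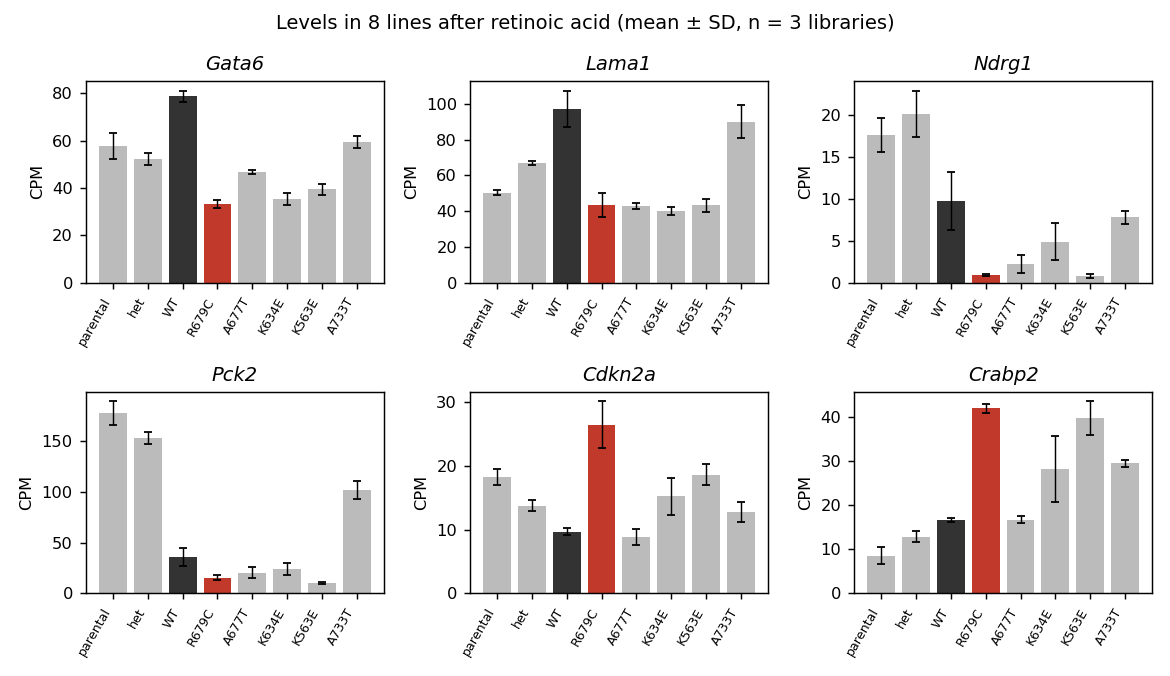
Mean level (CPM, axis from 0) of 6 genes in the 8 lines after ATRA, with bars for the SD of 3 libraries, R679C in red and WT in black. Gata6 and Lama1 are lowest in R679C and the 3 related lines, Ndrg1 and Pck2 are highest in parental and het, and Cdkn2a is highest in R679C.

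Against het, which has no added EZH2, R679C differed at 5669 genes, 2732 higher (16%) and 2937 lower (17.2%), or 33.3% of those tested. Kdr, the receptor of Vegfa on endothelial cells, had 26.8 ± 4.31 CPM in R679C and 3.55 ± 0.828 in het (log2 2.91, SE 0.172, adjusted p = 2.54e-12). Fli1, another endothelial gene, had 7.29 ± 1.82 and 0.883 ± 0.165 (log2 3.01, SE 0.264, adjusted p = 1.54e-09). Chl1 and the protocadherin Pcdh12 were also higher, at log2 3.31 and 3.21. Ndrg1 and Wnt3a were lower, at -4.45 and -3.92, as were Fut1 and Fhad1, at no more than 0.0593 CPM on average in R679C. All 8 kept their call under 14 alternatives. In the stress response list 29 of 31 members were lower and none higher, with a median of -1.01. In the endoderm list 16 of 28 were lower and 4 higher, with a median of -0.37. The comparisons with WT and with het share the R679C libraries.

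The last comparison asked whether the difference between R679C and WT depended on the state of the cells. The difference after ATRA was tested against that in mESC over 48 libraries. It was more positive after ATRA for 494 genes (2.79%) and more negative for 315 (1.78%), or 4.58% of 17683 tested. With the replicate block the count was 1269, and leaving out 1 library gave 439 to 1342. Ndrg1 had 0.917 ± 0.129 CPM in R679C and 9.71 ± 3.47 in WT after ATRA, and 19.98 ± 0.807 and 24.7 ± 2.57 before (SD, n = 3; interaction log2 -3.10, SE 0.374, adjusted p = 5.89e-07). Its levels in the lines were close before ATRA and far apart after it. Meis2 had 129 ± 6.23 CPM in R679C and 88.7 ± 3.57 in WT after ATRA, and 6.75 ± 0.643 and 0.815 ± 0.0432 before (interaction log2 -2.49, SE 0.226, adjusted p = 1.6e-10). The Meis2 difference was thus larger on the fold scale before ATRA, at much lower levels. Cubn had 5.70 ± 0.479 CPM in R679C and 14.6 ± 0.507 in WT after ATRA, and 0.485 ± 0.320 and 0.170 ± 0.0196 before (log2 -2.96, SE 0.495, adjusted p = 8.02e-05), and Lypd6 0.706 ± 0.213 CPM in R679C and 1.59 ± 0.330 in WT after ATRA, and 3.24 ± 0.113 and 2.04 ± 0.0645 before (log2 -1.84, SE 0.401, adjusted p = 0.00328). The mean of Cubn was higher in R679C than in WT before ATRA, at very low levels, and lower after it. The lines were not tested against each other before ATRA. Hoxb4, an anterior Hox gene, had 66.3 ± 5.02 CPM in R679C and 59.8 ± 1.39 in WT after ATRA, and 0 ± 0 and 0.183 ± 0.0917 before (adjusted p = 0.00299). These 5 genes kept their call under all 20 alternatives, although the 3 mESC libraries of R679C held no Hoxb4 count, so no fold is given for it. Leaving out 1 ATRA library gave 439 genes (R679C replicate 2), 462 (WT replicate 3) or 1342 (R679C replicate 3). It gave 547 without R679C replicate 1, 598 without WT replicate 1 and 916 without WT replicate 2. Leaving out 1 mESC library gave 669 (WT replicate 2), 738 (WT replicate 1) or 744 (R679C replicate 1). It gave 470 without WT replicate 3, 511 without R679C replicate 2 and 523 without R679C replicate 3. The more positive genes were then fewer than the more negative ones without WT replicate 3 (219 against 251) and without R679C replicate 3 (259 against 264).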

How the data were processed

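Libraries were made from poly(A) RNA, per the labels' protocols. The submitters' processing notes name mm10 as the genome and list STAR 2.7.3a, featureCounts 1.6.4, cutadapt 3.2 and DESeq2 1.38.3 without saying what each did. The authors deposited 1 table of raw counts of reads per gene, without normalisation. The sources used here do not give strandedness or the handling of multiply mapped reads. Column names gave each sample's line, state and replicate number. For 6 columns no label matched, and they were not used. Symbols and positions come from GENCODE M21 (GRCm38), in which 55141 of 55401 identifiers were found.

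The test was that of edgeR 4.0.16 in R 4.3.3 (filterByExpr, TMM scaling, robust quasi-likelihood test), fitted on the 24 ATRA libraries with 1 mean per line (16 residual degrees of freedom), or on all 48 libraries for the interaction with state (32). In each of 4 comparisons p-values were adjusted by the Benjamini-Hochberg method over every gene tested, with 0.05 as the threshold. "Rose" and "fell" mark genes past it. Fold changes are on the log2 scale, and SE is the standard error. Levels are TMM-scaled CPM, which were compared within a gene only. The test was also run on simulated counts with known changes.

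The 24 ATRA libraries held 15612700 to 31338825 counts, and depth limits what can be seen for genes near 1 CPM. In the 6 libraries compared, the mitochondrial share of counts was 1.26% to 1.96%, and that of the 10 most abundant genes 5.14% to 5.58%. Libraries of 1 line differed by more than counting error (chi-square per degree of freedom 5.47 to 18.0), so none is a copy. Across genes, the Spearman correlation of a library's deviation with GC content was 0.37, 0.57 and -0.22 in R679C replicates 1, 2 and 3 and 0.15, 0.55 and -0.28 in those of WT. The log2 fold change correlated with GC content at 0.20 over 10751 genes. Replicate numbers come from the labels. Deviations of same-numbered R679C and WT libraries correlated at 0.45, 0.62 and 0.70 over 10837 genes, and others at -0.52 to 0.021, so the numbers pair the samples. The main fit and the fits that leave out 1 library did not use this pairing. Their calls, and the failures to pass, come from a test without it. The replicate block used it and gave 2559 genes in place of 1758.

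Alternatives were RLE scaling, no filter on low counts, DESeq2 1.42.0, a GC correction (a lowess trend per library), the replicate block, both, a fit of only the groups compared, leaving out each library, and leaving out K634E replicate 3. Genes are named by a rule: per direction the 15 largest and the 5 smallest p among called genes with at least 1 CPM in a line and no overlap, up to 4 called members per list, the Hox genes tested, Ezh2, Ezh1, Eed, Suz12, Cyp26a1, Rarb and Pou5f1, and 6 or 4 per direction in the other comparisons. A few genes of these lists are not reported here one by one. Members and lists were chosen with earlier results of these data known. Other genes named were chosen after their values were seen. These are Lama1, Sox17, Gata4, Col4a1, Col4a2, Nid1, Klf5, Esrrb, Zfp42, Klf2, Sox2, Nanog, Klf4, Stra8, Pax6, Nes, Vim, Dll1, Cdh1, Cldn4, Cldn6, Ocln, Zeb1, Stra6, Zfp703, Cdkn1a, Aen, Phlda3, Mdm2, Ccnd1, Insr, Mest, Id1, Id2, Id3, Smad7, Gdf3, Bmp2, Bmp4, Bmp6, Bmp7, Bmp8b, Axin2, Tcf7l2, Asns, Psat1, Atf4, Sesn2, Vegfa, Pfkfb3, H2-K1 and H2-D1.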

Additional observations from a re-analysis of the deposited data

Results flagged for a closer look

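The difference between R679C and WT depended on the state of the cells for 809 genes, by the test of the interaction. Among the genes named, 21 differed in this way, and their adjusted p is that of the interaction. Levels are means ± SD of 3 libraries, in CPM.

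The difference, R679C minus WT on the log2 scale, was more positive after ATRA than before for 10 of them. BC048679 had 1.61 ± 0.0808 in R679C and 1.81 ± 0.0966 in WT after ATRA and 0.0181 ± 0.0313 and 0.223 ± 0.0466 before (adjusted p = 0.0283). Crabp2 had 42.0 ± 1.02 in R679C and 16.6 ± 0.490 in WT after ATRA and 1.10 ± 0.359 and 1.97 ± 0.128 before (adjusted p = 1.47e-06). Ctcfl had 0.866 ± 0.140 in R679C and 1.61 ± 0.467 in WT after ATRA and 0 ± 0 and 0.19975 ± 0.0877 before (adjusted p = 0.0495). Glis3 had 1.91 ± 0.724 in R679C and 0.775 ± 0.128 in WT after ATRA and 1.13 ± 0.181 and 1.84 ± 0.205 before (adjusted p = 0.000964). Hoxb4 had 66.3 ± 5.02 in R679C and 59.8 ± 1.39 in WT after ATRA and 0 ± 0 and 0.183 ± 0.0917 before (adjusted p = 0.00299). Id4 had 2.80 ± 0.711 in R679C and 0.919 ± 0.0617 in WT after ATRA and 3.04 ± 0.391 and 3.51 ± 0.813 before (adjusted p = 0.000824). Irs4 had 1.04 ± 0.182 in R679C and 1.03 ± 0.370 in WT after ATRA and 0.0750 ± 0.0821 and 0.526 ± 0.0295 before (adjusted p = 0.00519). Mir670hg had 2.48 ± 0.437 in R679C and 0.680 ± 0.225 in WT after ATRA and 0.0181 ± 0.0313 and 0.101 ± 0.0485 before (adjusted p = 0.0429). Sall3 had 46.1 ± 3.58 in R679C and 24.1 ± 1.37 in WT after ATRA and 38.9 ± 2.65 and 30.1 ± 2.42 before (adjusted p = 0.0029). Vstm2b had 10.9 ± 1.48 in R679C and 6.52 ± 0.339 in WT after ATRA and 0 ± 0 and 0.0856 ± 0.0312 before (adjusted p = 0.0369).

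The difference, R679C minus WT on the log2 scale, was more negative after ATRA than before for 11 of them. AU018091 had 17.3 ± 1.377 in R679C and 41.8 ± 2.58 in WT after ATRA and 105 ± 6.67 and 165 ± 5.86 before (adjusted p = 0.00017). Cdh10 had 5.198 ± 0.614 in R679C and 4.91 ± 0.717 in WT after ATRA and 0.510 ± 0.119 and 0.117 ± 0.0703 before (adjusted p = 0.0314). Cubn had 5.70 ± 0.479 in R679C and 14.6 ± 0.507 in WT after ATRA and 0.485 ± 0.320 and 0.170 ± 0.0196 before (adjusted p = 8.02e-05). Dsg2 had 16.7 ± 0.955 in R679C and 39.5 ± 1.78 in WT after ATRA and 111 ± 3.85 and 137 ± 10.9 before (adjusted p = 4e-08). Lypd6 had 0.706 ± 0.213 in R679C and 1.59 ± 0.330 in WT after ATRA and 3.24 ± 0.113 and 2.04 ± 0.0645 before (adjusted p = 0.00328). Meis2 had 129 ± 6.23 in R679C and 88.7 ± 3.57 in WT after ATRA and 6.75 ± 0.643 and 0.815 ± 0.0432 before (adjusted p = 1.6e-10). Ndrg1 had 0.917 ± 0.129 in R679C and 9.71 ± 3.47 in WT after ATRA and 19.98 ± 0.807 and 24.7 ± 2.57 before (adjusted p = 5.89e-07). Sh3rf2 had 0.378 ± 0.130 in R679C and 2.51 ± 0.219 in WT after ATRA and 3.80 ± 0.119 and 11.9 ± 0.453 before (adjusted p = 0.034). Tfcp2l1 had 20.6 ± 0.594 in R679C and 41.2 ± 1.70 in WT after ATRA and 941 ± 8.40 and 1235 ± 32.7 before (adjusted p = 1.68e-05). Wnt3a had 0.266 ± 0.139 in R679C and 2.33 ± 0.720 in WT after ATRA and 1.29 ± 0.558 and 2.84 ± 0.482 before (adjusted p = 0.0164). Zfp608 had 17.1 ± 1.41 in R679C and 16.9 ± 1.61 in WT after ATRA and 0.610 ± 0.566 and 0.0820 ± 0.0981 before (adjusted p = 0.0461).

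Of the 12 genes that were named for this interaction, Ctcfl kept its call under 5 of 20 alternatives, Zfp608 under 10, Mir670hg and Vstm2b under 11, Cdh10 under 12, BC048679 under 14 and Irs4 under 19. Their highest adjusted p was 0.169 for Ctcfl, 0.138 for Vstm2b, 0.157 for Mir670hg, 0.194 for BC048679 and 0.0735 for Irs4, all without mESC R679C replicate 2. It was 0.197 for Zfp608, without mESC R679C replicate 1, and 0.165 for Cdh10, with the GC correction. Mir670hg and BC048679 had 2 libraries without a count, Hoxb4, Vstm2b and Ctcfl 3, and Zfp608 and Irs4 1.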

How the results depend on the processing

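The count of genes that differed between R679C and WT after ATRA was 1758. It was 2770 with the GC correction, 3249 with the GC correction and replicate block together, and 1119 with only the groups compared. With the replicate block alone it was 2559 (1287 higher, 1272 lower), with DESeq2 1960, and leaving out 1 of the 6 R679C and WT libraries gave 1180 to 1519. Without K634E replicate 3, which enters only the shared estimate of the spread, it was 2202. Against the mean of A677T, K634E and K563E the count of 1600 became 560 with the GC correction, 3708 with the replicate block, 1032 with both and 56 with only the groups compared, and leaving out 1 library gave 76 to 3068. The interaction with state gave 809 genes, 1275 with no filter on low counts and 1269 with the replicate block, and 439 to 1342 without 1 library. Against het, 5669 genes became 4579 to 7354 over all alternatives, each within 1.5 times. The cause of these shifts was not tested.

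Of the 197 named genes called between R679C and WT, 131 kept their call under every alternative, 66 lost it without at least 1 library, and none reversed. The 22 reversals were all of genes that were not called, each with an adjusted p of 0.815 or more. Over the fits that leave out 1 R679C or WT library, the lowest and highest log2 values were -0.26 and 0.13 for Irs4, -0.056 and 0.078 for Zfp608, -0.017 and 0.17 for Cdh10, -0.075 and 0.23 for Fkbp6 and -0.62 and 0.28 for Pkhd1. They were -0.035 and 0.12 for Hoxb1, -0.082 and 0.056 for Hoxb3, -0.71 and 0.19 for Hoxb13, -0.082 and 0.53 for Hoxc6, -0.22 and 0.12 for Hoxd1 and -0.022 and 0.061 for Klf4. Klf4 was also at log2 -0.021 with the GC correction, -0.024 with that and the replicate block, and -9.00e-05 with only the groups compared.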
